A study of Mus musculus with 6 samples.

Results

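The genes described here encode the enzymes that turn membrane arachidonic acid into prostaglandins and leukotrienes. The 10 members were chosen by gene name (Ptgs1, Ptgs2, Ptges, Ptges2, Ptges3, Alox5, Alox5ap, Lta4h, Ltc4s and Pla2g4a). All 10 were found among the 23060 gene names of the expression table, and all 10 had a mean of at least 1 FPKM, the level from which genes were tested.

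The study asked how gene expression of atrial myocytes responds to tachypacing, which is fast electrical stimulation of cultured cells and stands in for the rapid rhythm of a fibrillating atrium. Total RNA came from wild-type cells with the label HL-1, an established mouse line of atrial muscle origin, in 3 control and 3 tachypaced libraries. All were grown in Claycomb medium with 10% fetal bovine serum, 0.1 mM norepinephrine and 2 mM glutamine. The labels state neither how fast nor how long cells were paced. They also do not say that replicates are separate cultures, and the p-values therefore reflect only library-to-library spread, which could be technical. Values are FPKM, fragment numbers scaled to transcript length and library total, which allows levels to be compared between genes. They summed to between 411050 and 416820 per control library and between 419557 and 432244 per tachypaced library, without overlap, and read depth is unknown. Genes above 0 numbered 15020 in tachypaced replicate 3 and between 13971 and 14230 in the others.

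Markers of the labelled cell type were largely absent. Of 12 cardiomyocyte markers, 6 (Myh6, Actc1, Myl7, Nkx2-5, Gata4 and Pln) were listed at 0 in every library, and only Tnni3 reached the tested level, at a mean of 3.40 FPKM. Of 13 macrophage markers, 10 reached it, while Mrc1, C1qa and C1qb were listed at 0. The summed level of the macrophage list ran from 1487 to 1679 FPKM in control and from 1834 to 2013 FPKM in tachypaced libraries, without overlap. Control replicate 1 lay nearest to the tachypaced libraries for several of the genes below, so several results are also given without it. For those genes leaving it out widens the difference by construction, so a pass without it is no added support.

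Eicosanoid synthesis starts when cytosolic phospholipase A2 frees arachidonic acid from membrane phospholipids. The cyclooxygenases, encoded by Ptgs1 and Ptgs2, convert it to prostaglandin H2, from which terminal synthases make prostaglandin E2 and the other prostanoids. In the other branch 5-lipoxygenase, helped by its activating protein, makes leukotriene A4, which is hydrolysed to the neutrophil attractant leukotriene B4 or joined to glutathione as leukotriene C4. Macrophages are known for running both branches, and Ptgs2 is the cyclooxygenase gene that inflammatory stimuli induce.

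The leukotriene helper gene Alox5ap was the most abundant member and the prostaglandin E synthase gene Ptges2 the least. Mean levels over the 6 libraries were 144 FPKM for Alox5ap, 94.0 for Ptgs2, 61.8 for Ptges3, 51.4 for Pla2g4a, 33.1 for Lta4h, 29.7 for Alox5, 20.4 for Ltc4s, 16.6 for Ptgs1, 4.52 for Ptges and 3.37 for Ptges2. Alox5ap stood at the 96.3 percentile of the mean levels of the 10361 tested genes and Ptges2 at the 18.9 percentile. Neighbours in this order kept apart in all 6 libraries, with 2 exceptions. The ranges of Lta4h and Alox5 overlapped. Lta4h was above Alox5 within each library, but in tachypaced replicate 2 they were nearly equal (29.5419 and 29.5416 FPKM). Ptges was above Ptges2 in 5 of the 6 libraries.

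**Figure D1:**
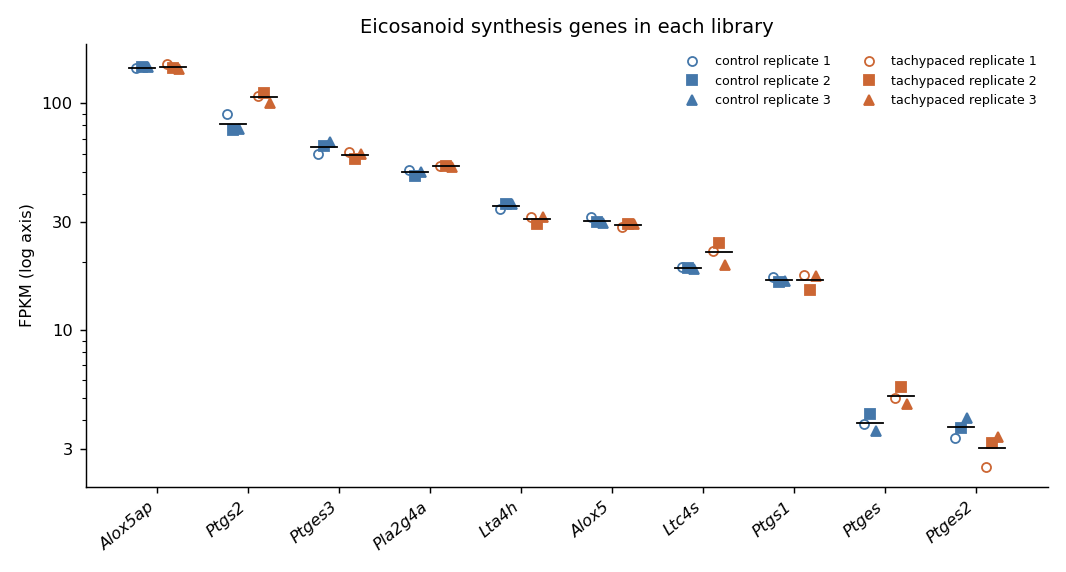
FPKM of the 10 synthesis genes (log axis) in each of 3 control (blue) and 3 tachypaced (orange) libraries, ordered by mean level, with group means as black lines. The groups stand apart for Ptgs2, where controls lie between 76.5 and 90.3 and tachypaced libraries between 101 and 111 FPKM, and coincide for Alox5ap and Ptgs1.

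Of the 10 members, 1 was higher in tachypaced libraries, Ptgs2, and 0 were lower (limma-trend over all 10361 tested genes, Benjamini-Hochberg adjusted p threshold of 0.05). Across all tested genes the same rule called 2.30% higher and 3.22% lower, 5.52% in all. Without control replicate 1, 2 members rose (Ptgs2 and Ptges) and 1 fell (Lta4h), while 1162 genes of the whole table rose and 1947 fell. Without any other library 0 members passed, and at most 12 genes of the whole table rose and 1 fell. The median log2 fold change of the 10 members was 0.0019, with 5 positive and 5 negative values, against a median of -0.04 over all tested genes. Control and tachypaced values did not overlap in 6 members, higher in 4 (Ptgs2, Ptges, Ltc4s and Pla2g4a) and lower in 2 (Alox5 and Lta4h), as in 34.9% of all tested genes (12.6% higher and 22.4% lower). At an unadjusted p under 0.05 there were 4 members, against 30.2% of the tested genes.

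Among the members, Pla2g4a encodes the enzyme of precursor release, the cytosolic phospholipase A2 that prefers arachidonate-containing phospholipids. The gene lies on chromosome 1 (149829618 to 149961290, GRCm38), 138.7 kb from Ptgs2 with 0 protein-coding genes between them. Pla2g4a stood at 51.1, 48.1 and 49.96 FPKM in control replicates 1 to 3 and at 53.3, 53.3 and 52.5 FPKM in tachypaced replicates 1 to 3. The 3 tachypaced values were the higher ones, without overlap, but the difference was small and did not pass the test (log2 fold change 0.09, 95% confidence interval -0.02 to 0.20, adjusted p = 0.245).

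Ptgs2, the inducible cyclooxygenase (chromosome 1, 150100031 to 150108227, plus strand), stood at 90.3, 76.5 and 77.1 FPKM in the controls and at 108, 111 and 101 FPKM in the tachypaced libraries. Every tachypaced library was above every control, and control replicate 1 was the control nearest to them. The mean rose from 81.3 ± 7.80 to 107 ± 5.30 FPKM (SD, n = 3 each), a log2 fold change of 0.39 (SE 0.07, 95% confidence interval 0.22 to 0.56, limma adjusted p = 0.0435) or 1.31-fold. This adjusted p was shared by 263 of the tested genes. The difference lay between 0.35 and 0.47 in the 15 alternative analyses and passed the test in 7 of them. Its sign could not turn when a library was left out, as the groups did not overlap. Without control replicate 1 the difference was 0.47 with an adjusted p of 0.000952. It did not pass without control replicate 2 (adjusted p = 0.154), control replicate 3 (0.137), tachypaced replicate 1 (0.159), tachypaced replicate 2 (0.172) or tachypaced replicate 3 (0.0669).

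Of the 10 tested macrophage markers 3 rose, 0 fell and 7 did not pass, against the 2.30% of all tested genes called higher. Those that rose were lysozyme Lyz2, the Fc receptor chain Fcer1g and the endotoxin co-receptor Cd14, with log2 fold changes of 0.50, 0.34 and 0.53. The receptor gene Csf1r, which marks the macrophage lineage, had a log2 fold change of -0.01 (limma adjusted p = 0.946) and the groups overlapped. They also overlapped for Adgre1, Ptprc, Itgam and Laptm5, which had log2 fold changes of 0.37, 0.19, 0.30 and 0.08. Cd68 and Tyrobp were higher without overlap, at 0.20 and 0.14, and did not pass. Of the 10 log2 fold changes 9 were positive, with a median of 0.25 against -0.04 over all tested genes. In control replicate 1 Lyz2 stood at 410 and Cd14 at 91.1 FPKM, each the highest of the controls, as for Ptgs2. Like that of Ptgs2, each of these 3 calls was absent when any library other than control replicate 1 was left out. In whole-culture RNA a change in the number of cells of a type and a change in RNA per cell cannot be told apart, and the part of the macrophage transcripts in the Ptgs2 difference was not tested.

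Ptgs1, the constitutive cyclooxygenase (chromosome 2, 36230426 to 36252272, plus strand), stood at 17.2, 16.2 and 16.5 FPKM in the controls and at 17.6, 15.0 and 17.3 FPKM in the tachypaced libraries. The tachypaced values lay on both sides of the controls. The log2 fold change was -0.0037, with a 95% confidence interval of -0.17 to 0.16 (limma adjusted p = 0.978), and its sign turned in 5 of 15 alternatives, among them both other scalings. The ratio of Ptgs2 to Ptgs1 within a library was 5.25, 4.71 and 4.67 in controls and 6.15, 7.40 and 5.82 in tachypaced libraries. All 3 tachypaced ratios were above all 3 control ratios. The mean log2 ratio differed by 0.40, with an exact two-sided permutation p of 0.1, the smallest that 3 against 3 libraries can give.

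Ptgs2 and Ptgs1 are shown here by the 250 bases before their transcription starts, since they make the same product while only Ptgs2 passed the test, together with Ptges, whose centred profile over the libraries was the nearest to that of Ptgs2 among the members. The windows are from RefSeq on GRCm38.p6, were matched for 9 of the 10 members in the copy used here (not Alox5ap), and are written 5′ to 3′ on the gene's strand. They are chr1:150099781-150100030 (plus), chr2:36230176-36230425 (plus) and chr2:30903298-30903547 (minus). The Ptges window lies inside the full annotated span of that gene (30889471 to 30929863), since the RefSeq start used is not its outermost one. Capitals mark matches to the C/EBP motif TTNNGNAA and the PU.1 motif GAGGAA, on either strand.
Ptgs2: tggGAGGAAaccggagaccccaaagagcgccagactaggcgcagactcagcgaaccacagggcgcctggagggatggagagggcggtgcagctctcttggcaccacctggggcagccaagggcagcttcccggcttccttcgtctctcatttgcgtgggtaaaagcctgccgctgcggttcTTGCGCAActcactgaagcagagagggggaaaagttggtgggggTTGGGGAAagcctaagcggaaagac
Ptgs1: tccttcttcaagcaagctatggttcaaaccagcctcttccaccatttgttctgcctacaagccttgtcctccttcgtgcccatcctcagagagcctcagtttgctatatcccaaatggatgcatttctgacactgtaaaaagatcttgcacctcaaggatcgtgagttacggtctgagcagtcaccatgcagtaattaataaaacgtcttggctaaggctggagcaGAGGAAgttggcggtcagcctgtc
Ptges: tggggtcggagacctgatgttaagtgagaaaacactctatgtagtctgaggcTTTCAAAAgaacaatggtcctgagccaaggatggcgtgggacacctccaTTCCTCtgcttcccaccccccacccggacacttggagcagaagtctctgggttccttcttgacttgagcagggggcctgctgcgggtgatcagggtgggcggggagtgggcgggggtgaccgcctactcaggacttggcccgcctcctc
The Ptgs2 window held 2 C/EBP matches, 69 and 25 bases before the start at their first base, and 1 PU.1 match. The Ptgs1 window held 0 and 1, and the Ptges window 1 and 1. Some member windows other than these also had matches. In all, 4 of the 10 windows of the 9 members (Pla2g4a has 2) held a C/EBP match and 5 held a PU.1 match, while 36.8% and 23.3% of all 32851 RefSeq windows of this length do. Of the other motifs searched on both strands, the NF-kB motif was found in 1 member window (Ptges3) against 7.25% of all windows, the TATA box TATAAA in 1 (Pla2g4a) against 12.4%, and E-boxes (CANNTG) in 7 against 66.2%. The CRE core TGACG and the AP-1 motif TGANTCA were in 0 member windows, against 17.8% and 6.75%. These are letter matches in a short window that ends at the RefSeq start, and the searches may overlap one another. Sites past either end of a window, including those after the start, were not searched.

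The prostaglandin E synthase genes differed widely in level, with Ptges3 the highest. Ptges encodes the microsomal synthase that is induced together with Ptgs2 in inflammation (chromosome 2, 30889471 to 30929863, minus strand). It stood at 3.84, 4.29 and 3.61 FPKM in controls and at 5.04, 5.63 and 4.73 FPKM in tachypaced libraries. The 3 tachypaced values were above all controls. With means of 3.91 ± 0.347 and 5.14 ± 0.457 FPKM (SD, n = 3 each), the log2 fold change was 0.32 (SE 0.09, 95% confidence interval 0.12 to 0.52), which did not pass the test over all genes (limma adjusted p = 0.0601). Without control replicate 1 it was 0.31 (SE 0.10) and passed (adjusted p = 0.0403), in a fit where 1162 genes of the whole table rose and 1947 fell. Here control replicate 2, not 1, was the control nearest to the tachypaced libraries. Ptges did not pass without any other library (limma adjusted p between 0.0856 and 0.198). The ratio of Ptges to Ptgs2 averaged 0.0485 ± 0.00693 in control and 0.0481 ± 0.00223 in tachypaced libraries (SD, n = 3 each), so the difference between the group ratios was smaller than their spread.

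Ptges2 encodes another, membrane-associated synthase (chromosome 2, 32395896 to 32405772). It stood at 3.35, 3.71 and 4.11 FPKM in controls and at 2.50, 3.18 and 3.37 FPKM in tachypaced libraries. Tachypaced replicate 3 lay inside the control range. The log2 fold change was -0.24 (95% confidence interval -0.47 to 0.001, limma adjusted p = 0.167). Ptges3 encodes the cytosolic synthase, a protein better known as p23, a partner of the chaperone Hsp90 (chromosome 10, 128058954 to 128077272). Its values were 59.6, 64.9 and 67.5 FPKM in controls and 61.4, 57.1 and 60.1 FPKM in tachypaced libraries, which overlapped, and its log2 fold change of -0.10 did not pass (95% confidence interval -0.24 to 0.04, adjusted p = 0.283). A processed pseudogene on chromosome 6, Ptges3-ps, is identical to it over 480 bases, so the assignment of reads between them is uncertain. Such a copy, at 95% identity over at least 300 bases, was found for 0 of the other 9 members.

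The genes that make leukotriene A4 were at nearly the same level in both groups. Alox5ap, the activating protein that presents arachidonic acid to 5-lipoxygenase (chromosome 5, 149264767 to 149288153), stood at 143, 144 and 145 FPKM in controls and at 149, 143 and 142 FPKM in tachypaced libraries. The tachypaced values lay on both sides of the controls. Its log2 fold change was 0.0075, with a 95% confidence interval of -0.10 to 0.11 (limma adjusted p = 0.929), and it turned to -0.0147 without tachypaced replicate 1. Alox5, the 5-lipoxygenase itself (chromosome 6, 116410077 to 116461178), stood at 31.5, 29.96 and 29.6 FPKM in controls and at 28.4, 29.5 and 29.5 FPKM in tachypaced libraries. The groups did not overlap, but they were separated by less than the spread of the controls, and the log2 fold change was -0.06 (95% confidence interval -0.18 to 0.06, adjusted p = 0.499). Across the 15 alternatives Alox5 stayed between -0.07 and -0.03 and did not pass.

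The genes that use leukotriene A4 had differences of opposite sign, of which 0 passed the test. Lta4h, the hydrolase that makes leukotriene B4 (chromosome 10, 93453411 to 93484875), stood at 34.1, 36.0 and 36.1 FPKM in controls and at 31.5, 29.5 and 31.6 FPKM in tachypaced libraries. All tachypaced values were below all controls, and control replicate 1 was again the nearest control. Its log2 fold change of -0.19 (SE 0.06, 95% confidence interval -0.32 to -0.07) did not pass over all genes (limma adjusted p = 0.0681), and without control replicate 1 it was -0.22 and passed (adjusted p = 0.0154).

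Ltc4s, which joins leukotriene A4 to glutathione (chromosome 11, 50236461 to 50238616), stood at 19.1, 18.8 and 18.5 FPKM in controls. Its tachypaced values were 22.4, 24.3 and 19.3 FPKM, all above the controls but with tachypaced replicate 3 close to them. Its log2 fold change was 0.21 (SE 0.08, 95% confidence interval 0.03 to 0.40, adjusted p = 0.120), and it passed in 0 of 15 alternatives. An antisense gene, Gm26542, covers 26.4% of the exonic bases of Ltc4s, and Gm19719 covers 13.3% of those of Alox5ap. The strand setting of the counting is not given in the sources used here, so reads from these partners cannot be told apart from those of the members. The ratio of Ltc4s to Lta4h, chosen after their values were seen and given with no test, was 0.559, 0.522 and 0.513 in controls and 0.711, 0.824 and 0.612 in tachypaced libraries. The lowest tachypaced ratio was above the highest control ratio, which follows from Ltc4s being higher and Lta4h lower without overlap.

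**Figure D2:**
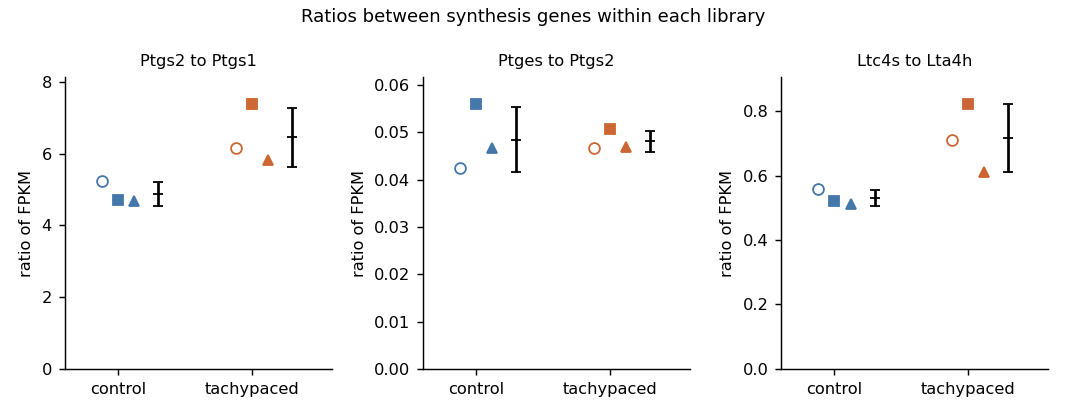
Ratios of FPKM within each library for 3 pairs of synthesis genes, with 3 control (blue) and 3 tachypaced (orange) libraries as points (circle, square and triangle for replicates 1, 2 and 3) and the mean ± SD beside them, on axes that start at 0. The Ptgs2 to Ptgs1 ratio lies between 4.67 and 5.25 in controls and between 5.82 and 7.40 in tachypaced libraries. The Ltc4s to Lta4h ratio also separates the groups, as it must with Ltc4s higher and Lta4h lower without overlap. The Ptges to Ptgs2 ratio does not separate them.

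Further genes of the pathway were taken from 4 lists with 67 members in the table, of which 25 reached the tested level. Of these 25, 2 rose (Pla2g5 and Ptgir) and 0 fell, against 2.30% and 3.22% of all tested genes. The median log2 fold change of the 25 was -0.02. Without control replicate 1, 6 rose and 2 fell, while 1162 of all 10361 tested genes rose and 1947 fell. Without any other library 0 of the 25 passed in either direction.

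Among 11 tested genes of precursor release and its control, 1 rose. Pla2g5, a secreted phospholipase A2 found in macrophages, went from 31.6, 28.0 and 24.8 to 36.0, 36.1 and 35.5 FPKM, without overlap. Its log2 fold change was 0.35 (SE 0.08, limma adjusted p = 0.0475). The related Pla2g2e stood at 7.43 ± 0.502 and 9.69 ± 1.32 FPKM (SD, n = 3 each) and did not pass (log2 fold change 0.34, limma adjusted p = 0.0651). Without control replicate 1 it was 0.37 and passed (adjusted p = 0.0259), as it did with library weights (adjusted p = 0.0242). The most abundant genes of this list were Anxa1 (annexin A1, known as an inhibitor of phospholipase A2), Pla2g12a and Plaa (a phospholipase A2 activating protein), at means of 74.0, 41.8 and 40.2 FPKM. Their log2 fold changes were 0.02, 0.11 and -0.02, with adjusted p of 0.853, 0.281 and 0.859. The small values of Anxa1 and Plaa changed sign under some settings.

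Of the list of synthases beyond the members, which includes the partner gene Cotl1, 6 genes could be tested and 0 passed. Akr1b3, an aldo-keto reductase that can make prostaglandin F2 alpha, was the most abundant at 987 FPKM, with a log2 fold change of -0.17 (limma adjusted p = 0.172). The microsomal glutathione transferase gene Mgst2, whose product can also make leukotriene C4, averaged 67.7 FPKM and had a log2 fold change of 0.11 (adjusted p = 0.244). Cotl1, a partner of 5-lipoxygenase, averaged 39.2 FPKM and had one of -0.12 (adjusted p = 0.267). Hpgds, the haematopoietic prostaglandin D synthase, named here after its values were seen, stood at 29.2, 20.6 and 20.7 FPKM in controls and at 33.2, 33.3 and 30.3 FPKM in tachypaced libraries. Control replicate 1 lay close to the tachypaced libraries, the log2 fold change was 0.46 (adjusted p = 0.0573), and without that library it was 0.62 and passed (adjusted p = 0.000560). The synthases of thromboxane (Tbxas1) and prostacyclin (Ptgis) were below the tested level, Tbxas1 at no more than 0.0297 FPKM in any library and Ptgis at a mean of 0.354 FPKM. The lipoxygenase genes Alox12 and Alox15 did not exceed 0.0595 FPKM.

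Receptor transcripts were scarce, with 2 of 15 genes tested and 6 (Ptger2, Ptger3, Ptgdr, Ptgfr, Cysltr2 and Oxgr1) listed at 0 in every library. Ptgir, the prostacyclin receptor, rose from 10.7, 8.29 and 7.98 FPKM in controls to 12.7, 14.9 and 13.2 FPKM in tachypaced libraries, without overlap. Its log2 fold change of 0.55 (SE 0.11, limma adjusted p = 0.0435) compares with 0.39 for Ptgs2, and the difference between them was not tested. Ptger4, a prostaglandin E2 receptor, stood at 1.63 ± 0.149 and 1.73 ± 0.0230 FPKM (SD, n = 3 each, adjusted p = 0.693), and Ptger1 averaged 0.903 FPKM and was not tested. Of the export and breakdown genes 6 were tested and 0 passed. Abcc1, which exports leukotriene C4, stood at 77.9 ± 1.15 and 71.6 ± 1.37 FPKM (SD, n = 3 each) with a log2 fold change of -0.12 (adjusted p = 0.128). The prostaglandin reductase genes Ptgr2 and Ptgr1 had log2 fold changes of 0.16 and -0.20 (adjusted p = 0.115 and 0.202). Without control replicate 1 both passed, Ptgr2 at 0.19 (limma adjusted p = 0.0486) and Ptgr1 at -0.30 (adjusted p = 0.0296). Over the libraries left out Ptgr1 ran from -0.30 to -0.11. Hpgd, which inactivates prostaglandins, was listed at 0 throughout.

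**Figure D3:**
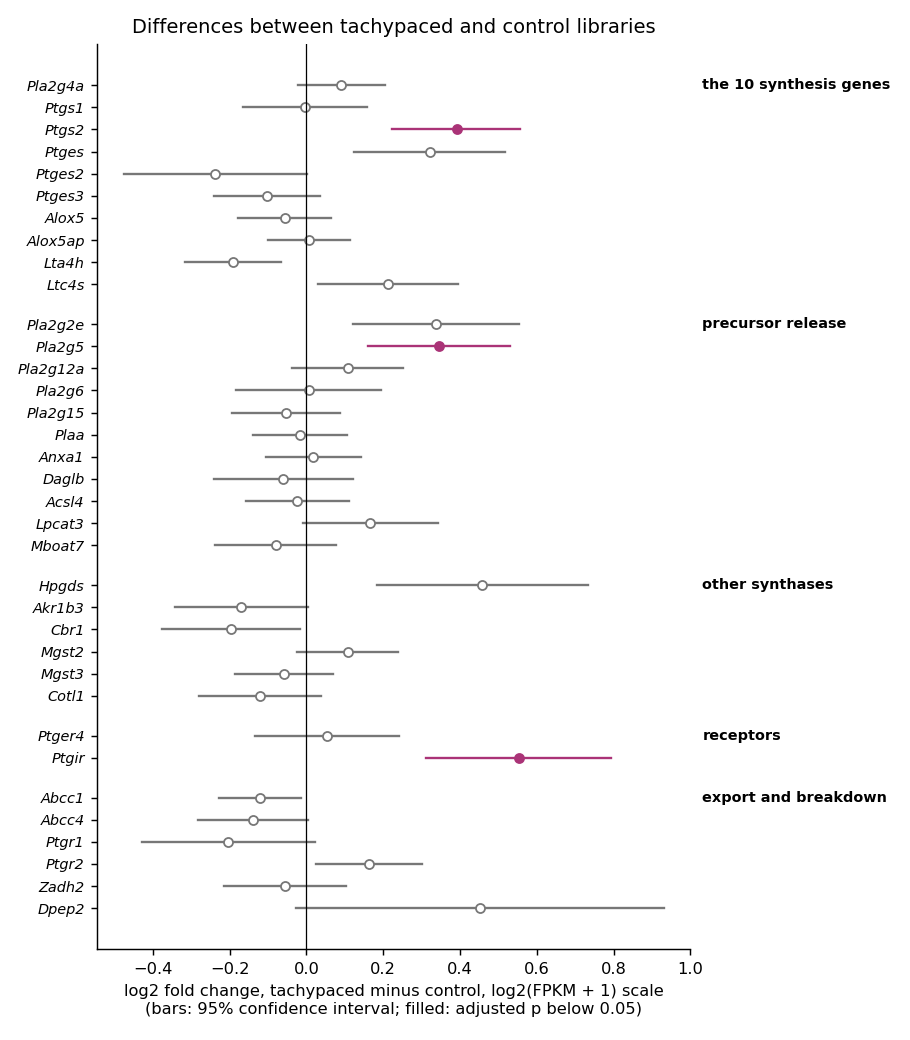
Log2 fold change of tachypaced against control libraries (points) with 95% confidence intervals (bars) for the 10 synthesis genes and the 25 tested genes of 4 pathway lists, filled where the adjusted p was below 0.05. Only Ptgs2, Pla2g5 and Ptgir are filled, at 0.39, 0.35 and 0.55.

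The genes whose levels moved most like those of Ptgs2 over the 6 libraries were Aig1 (a fatty acid ester hydrolase gene), Eif1 (a translation initiation factor) and Rap1b (a small GTPase). Their root mean square distances to Ptgs2 on the centred log2(FPKM + 1) scale were 0.0126, 0.0258 and 0.0265, the smallest of 9690 named tested genes, of which 31 lay within 0.05. Their log2 fold changes were 0.41, 0.35 and 0.35, a direction that the choice by likeness to Ptgs2 fixes. Among the members Ptges was the nearest at 0.115, farther than 5.74% of these genes, followed by Ltc4s at 0.123.

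**Figure D4:**
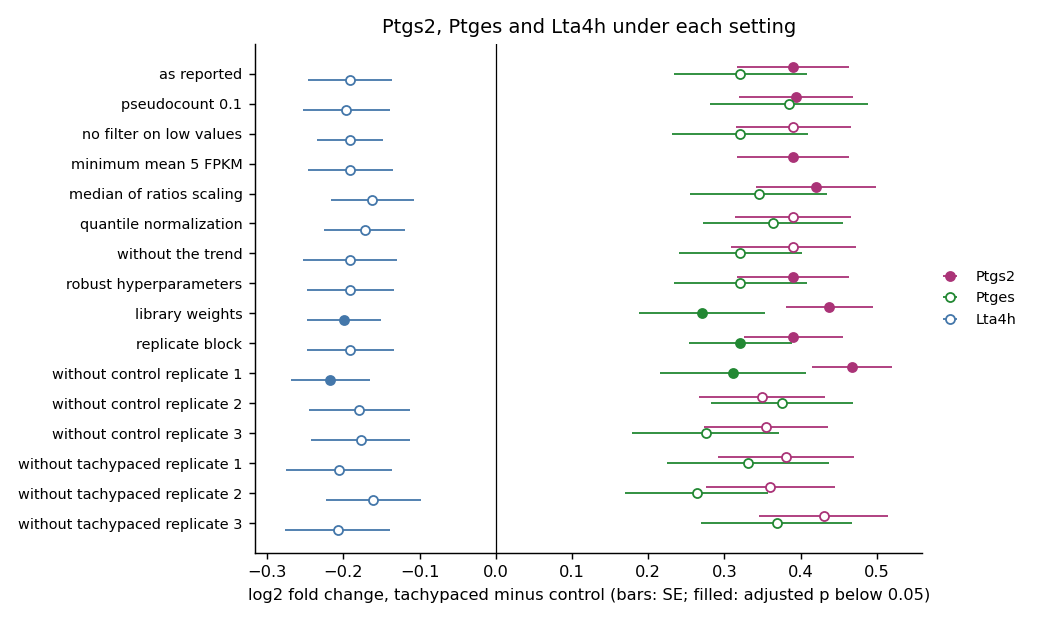
Log2 fold change (points) ± SE (bars) of Ptgs2, Ptges and Lta4h in the analysis as reported and in each of the 15 alternatives, filled where the adjusted p was below 0.05 (Ptges was below the 5 FPKM minimum). The groups do not overlap for any of these genes, so leaving out a library could not turn a sign. Whether the genes pass depends on the setting.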

How the data were processed

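Total RNA libraries were made with a SMARTER mRNA kit, per the labels' protocols. The authors deposited 1 table of FPKM values with a column per library, and the submitters' processing notes name GRCm38 (mm10) as the build. Aligner, quantifier, annotation and strandedness: not given in the sources used here. Sample descriptions link columns to samples, whose titles give the group and replicate. Steps of whole reads were looked for in the ratios of low values between libraries. At most 5.15% of ratios fell in any 0.05 bin on the log2 scale, which was not compared with a reference. No depth or detection limit could be given, and no pair of libraries was identical.

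Values were transformed to log2(FPKM + 1), a scale that understates the change of low genes. Genes averaging 1 FPKM or more, 10361 in number, were fitted with limma 3.58.1 in R 4.3.3 (eBayes with trend, two-sided, no covariates), with Benjamini-Hochberg adjustment over all of them and a threshold of 0.05. The steps were tested on simulated data. The ratio of Ptgs2 to Ptgs1 was tested by exact permutation with scipy 1.17.1. Gene positions and copies came from GENCODE M21 on GRCm38 by symbol, for 10 of 10 members, and copies were sought with blastn among its transcripts.

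The members, lists and tests were chosen with earlier results of these data known. Named were all members, of each pathway list the 3 most abundant genes and every gene past the threshold, and the 3 genes nearest in profile to each member past it. Hpgds, Pla2g2e and genes named as low or absent were picked with their values in view. Alternatives covered the pseudocount (0.1), the filter (none, or 5 FPKM), scaling (quantile, or median of ratios), the variance model (no trend, robust, library weights), a replicate block, and each library left out.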

Additional observations from a re-analysis of the deposited data

How the results depend on the processing

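As reported, 1 member was called higher and 0 lower, 2 pathway genes higher and 0 lower, and 238 genes of the whole table higher and 334 lower. Without a filter, 0 members, 0 pathway genes and 0 genes in all were called in either direction. With quantile normalization 0 members and 0 pathway genes were called higher, and 13 genes in all higher and 4 lower. Without the trend 0 members and 0 pathway genes were called higher, and 2 genes in all higher and 0 lower. Median of ratios scaling called 221 genes higher and 183 lower, which moves the balance of calls toward the higher ones. Library weights called 2 members higher and 1 lower, 4 pathway genes higher and 3 lower, and 1154 genes in all higher and 1942 lower. Leaving out a library in turn gave 0 to 2 members higher and 0 to 1 lower, 0 to 6 pathway genes higher and 0 to 2 lower, and 1 to 1162 genes in all higher and 0 to 1947 lower, the highest counts always without control replicate 1. With the replicate number as a block, 2 members (Ptgs2 and Ptges, adjusted p = 0.0321 and 0.0400) were called higher, 3 pathway genes higher, and 334 genes in all higher and 591 lower. Deviations of same-numbered libraries had correlations of 0.06, -0.03 and 0.16 across genes, and those of the other pairs ran from -0.16 to 0.08. With so few libraries these values cannot decide whether same-numbered libraries share a batch or culture, which the labels do not state. The log2 fold change of Ptgs1 turned positive with median of ratios scaling (0.0247), quantile normalization (0.0585) and library weights (0.036), and ran from -0.0423 to 0.0638 over the libraries left out. That of Plaa turned positive with the same settings (0.0128, 0.0061 and 0.0153) and ran from -0.0493 to 0.0126 over the libraries left out. Over the same set Alox5ap ran from -0.0147 to 0.0217 and Anxa1 from -0.0143 to 0.0585. The ratio of Ptgs2 to Ptgs1 differed by 0.30 to 0.47 on the log2 scale over the libraries left out and by 0.39 with a pseudocount of 1. The causes of these changes were not tested.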

Other observations

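Cells other than macrophages that are known for making leukotrienes or prostaglandins left few transcripts in these libraries. Of 6 mast cell markers 5 (Kit, Mcpt4, Tpsb2, Fcer1a and Ms4a2) were listed at 0 in every library, and the list summed to at most 0.0290 FPKM. The 7 neutrophil markers summed to between 0.569 and 1.25 FPKM in control and between 0.828 and 1.20 FPKM in tachypaced libraries, with Ly6g and Ngp listed at 0. The 7 fibroblast markers summed to at most 0.144 FPKM, and of 5 endothelial markers only Pecam1 reached the tested level, at a mean of 1.70 FPKM.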
